A study of Mus musculus with 24 samples.

Results

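Lipid-associated macrophages are foamy macrophages that collect around dying, fat-laden cells. The genes described here are 10 that mark this state: Gpnmb, Trem2, Itgax, Cd9, Mmp12, Lgals1, Lgals3, Atp6v0d2, Capg and Spp1. Members were found by gene symbol, with the brightest probe set kept where a gene had several. Of the 10 listed genes 9 were measured, each by 1 probe set, out of 18820 genes, and Spp1 was not analysed here. The 10 were selected on the difference between genotypes, the log2 values of knockout against wild-type livers being already known, so those under vehicle are given as a description without a test.

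The study asked how liver gene expression responds to obeticholic acid (OCA, INT-747, or 6α-ethyl-chenodeoxycholic acid), a modified bile acid that activates the nuclear bile acid receptor FXR. RNA of 24 mouse livers was read on whole-transcript arrays, and each of 4 groups held 6 livers: wild-type mice on vehicle, wild-type mice on OCA, FXR-/- mice on vehicle and FXR-/- mice on OCA. All mice were males on the C57BL/6 background, were 9 to 12 weeks old and ate chow. OCA (10 mg/kg/day) or its vehicle, 1% methyl cellulose, was given once a day by gavage for 7 days. The labels call the knockout FXR-/- and name no driver or Cre. They do not say whether knockout and wild-type mice were littermates, so genotype and colony cannot be told apart.

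TREM2 is a surface receptor that binds lipids and lipoproteins and signals through the adaptor TYROBP, and macrophages that carry it take up debris, digest it in lysosomes and export the cholesterol. In fatty or injured liver such cells arise largely from monocytes and are known to lie near areas of injury and scarring. Their typical products serve lipid sensing (TREM2), lysosome function (GPNMB, the proton pump subunit encoded by Atp6v0d2), adhesion (CD11c from Itgax, CD9), matrix breakdown (MMP12), glycan binding (the galectins) and actin remodelling (CAPG). Several of them, among them Lgals1, Lgals3, Cd9 and Capg, are also made by other cells.

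Values are log2 expression, so a difference of 1 is a doubling. Nr1h4, the FXR gene, averaged 10.14 ± 0.12 (SD, n = 6) in wild-type and 9.97 ± 0.11 (SD, n = 6) in knockout livers under vehicle, with overlapping groups, and the exons that its probe set covers are not known here. FXR targets checked the genotype labels instead. Nr0b2, the FXR-induced repressor SHP, fell by 2.62 ± 0.25 (SE) in knockout liver under vehicle (limma adjusted p = 1.21e-08), and Slc51b, part of a bile acid exporter, fell by 1.11 ± 0.13 (limma adjusted p = 4.73e-07), both with groups apart. In 3 livers general macrophage markers stood above the rest of their group: wild-type vehicle replicate 6, wild-type OCA replicate 6 and knockout OCA replicate 3. Wild-type vehicle replicate 6 also had 532 genes over 2-fold from the rest of its group, against 2 to 90 in the other 23 arrays. Each array's label also carries a code with a number, 5, 7 or 9, whose meaning is not stated: wild-type OCA arrays have 5, knockout OCA arrays 9, wild-type vehicle arrays 7 (4 arrays) or 5, and knockout vehicle arrays 7 (4 arrays) or 9. No detection calls were used, so the lowest levels may be background. In whole liver, more cells of a type and more RNA per cell cannot be told apart.

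The 9 measured members were higher in FXR-knockout liver, from 1.43-fold (Cd9, under OCA) to 23.9-fold (Mmp12, under vehicle), whereas 7 days of OCA passed the test for none, apart from Gpnmb in wild-type liver under 1 alternative given with its values. Under vehicle the mean was higher in knockout for 9 of 9 members, by 0.62 (Cd9) to 4.58 (Mmp12) on the log2 scale, with a median of 1.61 against -0.03 over all genes. Groups did not overlap for 8 of 9 members, Cd9 being the exception, beside 9.40% of all genes apart and higher; limma called 15.4% of genes higher, 12.1% lower and 27.5% in all there. Under OCA, in other animals, limma with Benjamini-Hochberg adjustment over 18820 genes (adjusted p under 0.05, here and below) called 9 of 9 members higher, where the background was 17.4% of genes called higher, 13.3% lower and 30.7% in all. The median difference there was 1.69, against -0.02 over all genes. Wild-type and knockout OCA livers did not overlap for 9 of 9 members, a pattern seen in 10.9% of genes. The OCA mice give values from other livers, but their results were known when the genes were put forward and so are not independent support. The same limit holds for every p-value of a single member between genotypes under OCA given below.

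**Figure D1:**
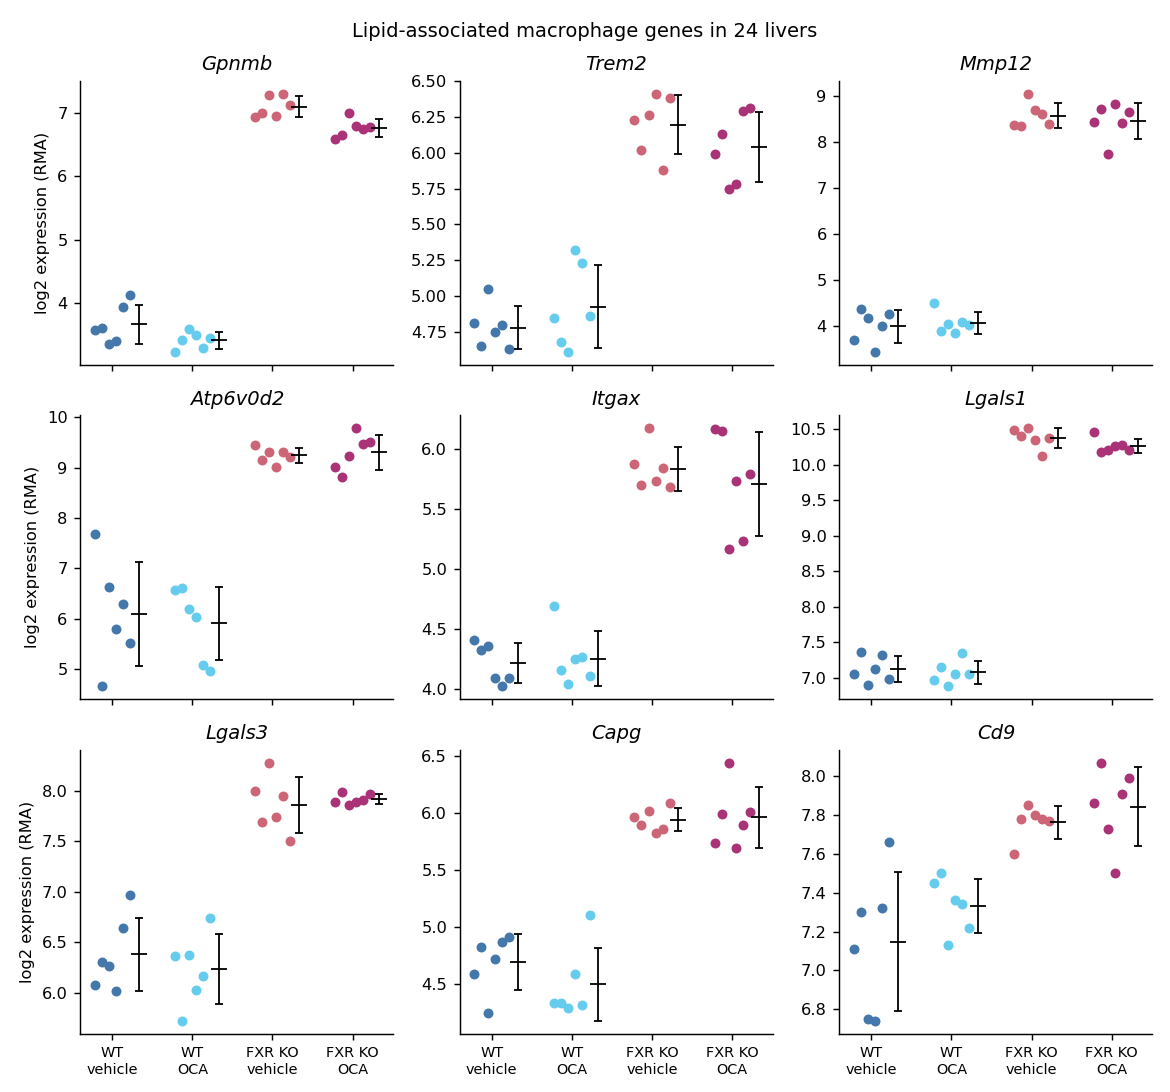
Log2 expression of the 9 measured genes in each of 24 livers, 1 point per liver, in 4 groups of 6, with the group mean and SD as a bar beside the points. The vertical axes differ between panels and do not start at 0. Knockout points lie above all wild-type points in 8 panels, and in the Cd9 panel the highest wild-type vehicle liver (7.66) lies above the lowest knockout liver (7.50).

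Among the surface receptors, Gpnmb encodes a transmembrane glycoprotein of lysosome-rich macrophages and pigment cells. In wild-type livers it read from 3.36 to 4.13 under vehicle (median 3.59) and from 3.23 to 3.60 under OCA (median 3.44). In knockout livers it read from 6.94 to 7.30 under vehicle (median 7.06) and from 6.59 to 7.00 under OCA (median 6.76). The lowest knockout liver thus lay above the highest wild-type liver, at 6.59 against 4.13. The knockout mean was 10.7-fold higher under vehicle (log2 difference 3.42 ± 0.11, SE). Under OCA it was 10.1-fold higher (log2 difference 3.34 ± 0.11, limma adjusted p = 1.69e-17).

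Trem2, the lipid receptor itself, differed less. Its wild-type levels ran from 4.63 to 5.05 under vehicle (median 4.78) and from 4.61 to 5.32 under OCA (median 4.86). Its knockout levels ran from 5.88 to 6.41 under vehicle (median 6.25) and from 5.75 to 6.31 under OCA (median 6.06). Groups of different genotype did not overlap, although the gap between the highest wild-type and the lowest knockout liver under OCA was only 0.44. The difference was 1.42 ± 0.12 under vehicle and 1.12 ± 0.12 under OCA (limma adjusted p = 1.15e-07), or 2.67-fold and 2.17-fold.

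Itgax encodes CD11c, an integrin α subunit found on dendritic cells and on some macrophages. Wild-type livers read 4.03 to 4.41 under vehicle (median 4.21) and 4.04 to 4.69 under OCA (median 4.20). Knockout livers read 5.68 to 6.17 under vehicle (median 5.78) and 5.17 to 6.16 under OCA (median 5.76). The knockout OCA livers were spread most widely, with replicates 3 and 5 at 5.17 and 5.23 and replicates 1 and 2 at 6.16 and 6.15, and all 6 were above the wild-type livers. Differences were 1.61 ± 0.15 under vehicle and 1.45 ± 0.15 under OCA (limma adjusted p = 2.33e-08). When wild-type vehicle replicate 6 was left out and the number in the array code was fitted as a block, the difference under OCA was 1.25 ± 0.40 and no longer passed (limma adjusted p = 0.0521).

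Cd9, a tetraspanin of many cell types that organises membrane domains, showed the smallest difference of the 9. Wild-type livers ran from 6.74 to 7.66 under vehicle (median 7.21) and from 7.13 to 7.50 under OCA (median 7.35). Knockout livers ran from 7.60 to 7.85 under vehicle (median 7.78) and from 7.50 to 8.07 under OCA (median 7.88). Wild-type vehicle replicate 6, at 7.66, lay above the lowest knockout vehicle liver, so these groups overlapped, and under OCA the groups were apart by 0.01. The difference was 0.62 ± 0.12 (1.53-fold) under vehicle and 0.51 ± 0.12 (1.43-fold) under OCA, with a limma adjusted p of 0.00193. With the code number of the arrays as a block the difference under OCA was 1.14 ± 0.24 (limma adjusted p = 0.00256).

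Of the secreted products, Mmp12 encodes macrophage elastase, a protease that cuts elastin and other matrix proteins, and it showed the largest difference of the 9. Wild-type livers read between 3.44 and 4.38 under vehicle (median 4.10) and between 3.86 and 4.51 under OCA (median 4.04). Knockout livers read between 8.36 and 9.05 under vehicle (median 8.50) and between 7.75 and 8.84 under OCA (median 8.54). The low value of 7.75 came from knockout OCA replicate 3, the liver with the highest macrophage marker level, and still lay 3.24 above the highest wild-type OCA liver. The knockout mean was 23.9-fold higher under vehicle (4.58 ± 0.17) and 21-fold higher under OCA (4.40 ± 0.17, limma adjusted p = 4.75e-16). By size of increase Mmp12 held rank 7 of 18820 genes under OCA, with Atp6v0d2 at 15, Gpnmb at 16 and Lgals1 at 19.

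Lgals1 and Lgals3 encode galectins, lectins that bind β-galactosides inside and outside the cell. Lgals1 ran from 6.88 to 7.37 over both wild-type groups, with medians of 7.09 under vehicle and 7.06 under OCA. In knockout livers it ran from 10.12 to 10.51 over both groups, with medians of 10.39 and 10.23. These tight groups were separated by 2.75 under vehicle and 2.83 under OCA. The difference was 3.24 ± 0.09 (9.48-fold) under vehicle and 3.19 ± 0.09 (9.1-fold) under OCA, and with a limma adjusted p of 3.89e-19 Lgals1 held rank 3 of all genes by p under OCA.

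Lgals3 differed less and varied more among wild-type livers. It read 6.02 to 6.97 in wild-type vehicle livers (median 6.28) and 5.72 to 6.74 in wild-type OCA livers (median 6.26). It read 7.50 to 8.28 in knockout vehicle livers (median 7.85), while the 6 knockout OCA livers sat closely together between 7.86 and 7.99 (median 7.90). Groups of different genotype did not overlap. The differences were 1.48 ± 0.15 (2.8-fold) under vehicle and 1.69 ± 0.15 (3.22-fold) under OCA, the latter with a limma adjusted p of 3.89e-09.

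Inside the cell, Atp6v0d2 encodes the d2 subunit of the membrane sector of the vacuolar proton pump, a form known from osteoclasts and macrophages. Wild-type livers were scattered, from 4.66 to 7.68 under vehicle (median 6.05) and from 4.97 to 6.62 under OCA (median 6.11). Knockout livers were not, reading 9.02 to 9.44 under vehicle (median 9.27) and 8.82 to 9.78 under OCA (median 9.35). The SD was 1.03 and 0.72 in the wild-type groups against 0.14 and 0.35 in the knockout groups. The knockout mean was higher by 3.14 ± 0.35 (8.83-fold) under vehicle and by 3.39 ± 0.35 (10.5-fold) under OCA, with a limma adjusted p of 2.57e-08 for the latter.

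Capg encodes an actin-capping protein of the gelsolin family that is abundant in macrophages. It read 4.25 to 4.91 in wild-type vehicle livers (median 4.77) and 4.29 to 5.11 in wild-type OCA livers (median 4.34). In knockout livers it read 5.82 to 6.09 under vehicle (median 5.93) and 5.69 to 6.44 under OCA (median 5.94). The highest wild-type liver, at 5.11, was OCA replicate 6, one of the 3 livers high in macrophage markers. The genotype difference was 1.24 ± 0.13 (2.37-fold) under vehicle and 1.46 ± 0.13 (2.76-fold) under OCA (limma adjusted p = 4.16e-09).

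Since these genes were higher together, the 250 bases before their start sites were searched for motifs of factors known in macrophages, and the 4 windows that held a match are shown. RefSeq promoters of build GRCm38.p6 covered 7 of the 9 measured members in 8 windows. Both strands were searched for CACGTG (the E-box core bound by MiT/TFE factors), its longer form GTCACGTG, TGANTCA (AP-1), GAGGAAGT (PU.1) and the inverted repeat bound by FXR (AGGTCA and TGACCT with 1 base between). The longer E-box contains the core, and no other pair was nested. Capitals mark the match, and all 4 windows are on the plus strand.
Trem2 chr17:48346151-48346400: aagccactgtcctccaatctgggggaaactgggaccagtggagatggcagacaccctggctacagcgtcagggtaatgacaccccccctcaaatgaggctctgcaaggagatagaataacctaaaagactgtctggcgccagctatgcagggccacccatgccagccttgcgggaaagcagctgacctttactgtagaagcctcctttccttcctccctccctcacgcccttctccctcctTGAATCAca
Mmp12 chr9:7344147-7344396: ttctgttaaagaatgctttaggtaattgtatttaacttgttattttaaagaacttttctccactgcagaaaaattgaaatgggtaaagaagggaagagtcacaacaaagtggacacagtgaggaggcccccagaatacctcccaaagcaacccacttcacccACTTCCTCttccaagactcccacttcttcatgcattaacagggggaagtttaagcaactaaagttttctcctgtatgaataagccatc
Mmp12 second start chr9:7347124-7347373: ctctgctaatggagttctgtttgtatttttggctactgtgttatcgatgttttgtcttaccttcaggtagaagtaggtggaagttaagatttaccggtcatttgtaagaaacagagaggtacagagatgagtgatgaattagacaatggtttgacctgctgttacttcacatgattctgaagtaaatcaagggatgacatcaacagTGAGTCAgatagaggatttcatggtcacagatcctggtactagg
Itgax chr7:128129300-128129549: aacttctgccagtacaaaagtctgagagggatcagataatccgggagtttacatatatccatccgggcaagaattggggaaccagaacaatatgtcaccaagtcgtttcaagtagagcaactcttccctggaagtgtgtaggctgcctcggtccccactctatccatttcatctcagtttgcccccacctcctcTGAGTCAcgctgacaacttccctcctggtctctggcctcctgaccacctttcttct

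The AP-1 letters stood at -9 to -3 before the Trem2 start (TGAATCA), at -44 to -38 before the second Mmp12 start (TGAGTCA) and at -56 to -50 before the Itgax start (TGAGTCA). The PU.1 letters stood at -88 to -81 before the first Mmp12 start, with the motif on the minus strand, so that the plus strand printed here reads ACTTCCTC. Among 32851 promoters of this length 6.75% held the AP-1 letters and 2.44% the PU.1 letters. The E-box core was in 6.02%, its longer form in 1.85% and the FXR repeat in 0.00609%, and none of these stood in the 8 windows. A match is a run of letters, and binding was not measured.

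OCA was then set against vehicle within each genotype, which asks whether activating FXR moved these genes. The treatment itself was visible in wild-type liver: Nr0b2 rose by 1.41 ± 0.25 (limma adjusted p = 0.0244), Slc51b rose by 1.02 ± 0.13 (adjusted p = 6.99e-04) and Cyp8b1, an enzyme of cholic acid synthesis that FXR represses, fell by 1.28 ± 0.14 (adjusted p = 3.74e-05). Of the members, limma called 0 of 9 in wild-type liver, where 0.0691% of genes were called. It called 0 of 9 in knockout liver, where 0.0159% of genes were called. At an unadjusted p under 0.05, limma picked 1 of 9 members in each genotype, Gpnmb both times, against 9.47% and 5.14% of genes.

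**Figure D2:**
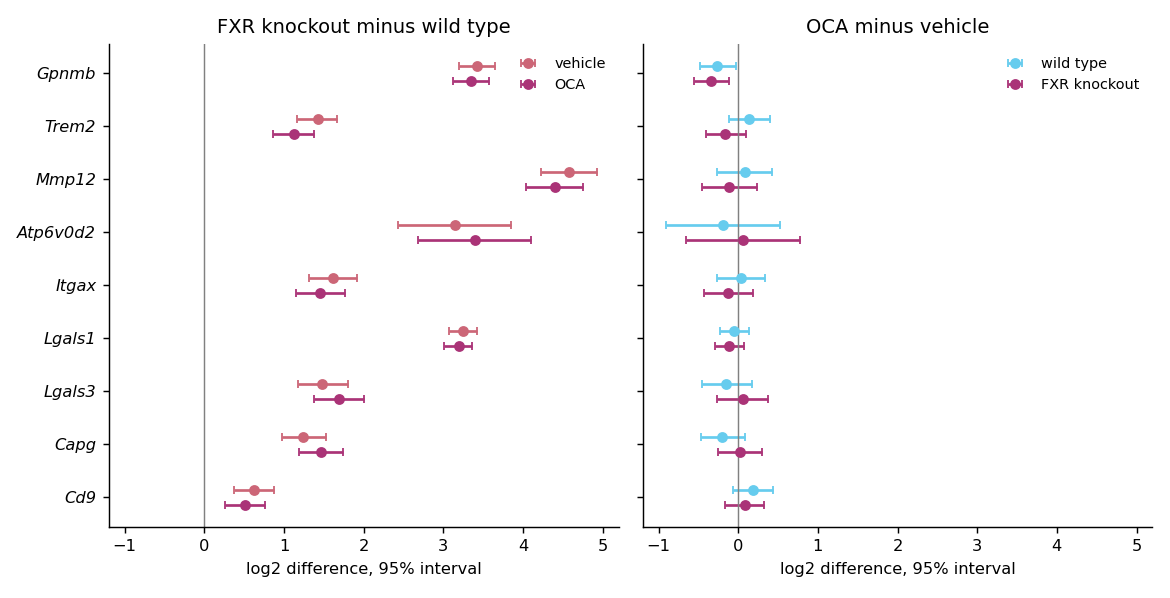
Log2 difference with its 95% interval for the 9 members, knockout minus wild type on the left (under vehicle and under OCA) and OCA minus vehicle on the right (in wild-type and in knockout liver), on 1 common scale. The genotype differences run from 0.62 to 4.58 under vehicle, shown as a description, and from 0.51 to 4.40 under OCA, while the OCA differences run from -0.34 to 0.19.

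Gpnmb had the lowest unadjusted p of the members in both genotypes. It was lower by 0.26 in wild-type livers on OCA (log2 difference -0.26 ± 0.11, 95% interval -0.48 to -0.03, limma adjusted p = 0.458). In knockout livers the log2 difference was -0.34 ± 0.11 (95% interval -0.56 to -0.11, limma adjusted p = 0.821). Both wild-type groups read below the array medians of 4.57 to 4.65, so the Gpnmb levels there may be background. The 2 wild-type vehicle livers whose array code carries the number 5, replicates 5 and 6, read 3.94 and 4.13, while the other 4, with the number 7, read 3.36 to 3.61. All 6 wild-type OCA arrays carry the number 5. With this number as a block the wild-type difference was -0.62 (limma adjusted p = 0.00497, where 3.54% of genes were called), within number 5 alone it was -0.62 (adjusted p = 0.167), with the block and without vehicle replicate 6 it was -0.53 (adjusted p = 0.12), and without replicate 6 alone it was -0.16 (adjusted p = 0.614).

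For the other 8 members the 95% intervals of the fit without a block give the size of an OCA effect it leaves room for. Mmp12, Itgax, Capg and Trem2 read close to or below the array medians of 4.57 to 4.65 in wild-type liver. If such levels are background, a fall with OCA could not show there, and the lower bounds do not limit it. In wild-type liver the estimates ran from -0.20 (Capg, 95% interval -0.47 to 0.08) to 0.19 (Cd9, -0.07 to 0.44). The interval of Trem2 there was -0.11 to 0.40 and that of Mmp12 -0.27 to 0.43. Lgals1 was estimated most closely, at -0.05 (-0.23 to 0.13) in wild-type and -0.11 (-0.29 to 0.07) in knockout liver. Atp6v0d2, with its scattered wild-type livers, was bounded least, at -0.19 (-0.90 to 0.52) in wild-type and 0.06 (-0.65 to 0.77) in knockout liver. The fit uses a spread common to all groups. For this gene its interval is therefore too narrow for the scattered wild-type livers and too wide for the knockout livers. For Lgals3 and Itgax in wild-type liver the intervals were -0.46 to 0.17 and -0.27 to 0.34. With the code number of the arrays as a block, the wild-type estimates of Lgals3 (-0.57 ± 0.19, limma adjusted p = 0.0902) and Cd9 (-0.16 ± 0.14, adjusted p = 0.626) lay outside these intervals, that of Capg was -0.39 ± 0.19 (adjusted p = 0.274), and none of the 3 passed.

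Whether the OCA response differed between genotypes was tested as an interaction. Limma called 0 of 9 members and 0% of all genes, and at an unadjusted p under 0.05 it picked 0 of 9 members and 6.06% of genes. The member with the lowest p was Trem2, whose log2 change with OCA was 0.14 in wild-type and -0.16 in knockout liver, a difference of -0.30 ± 0.18 (limma unadjusted p = 0.102, adjusted p = 0.849). The interval of that difference, -0.66 to 0.06, includes 0. The comparisons share groups of arrays, so their values stand side by side without a correlation between them.

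The other genes listed for lipid-associated macrophages were mostly higher in knockout liver as well. This list and those below were written with earlier results of these data known, so their counts are not independent support. Under OCA limma called 22 of 28 measured ones higher and 0 lower, with a median difference of 0.75, and under vehicle it called 22 of 28 higher with a median of 0.69. Lowest in p were Cd36, a fatty acid and lipoprotein receptor (2.92 ± 0.14), Anxa2, a membrane-binding annexin (2.17 ± 0.11), Hexa, a lysosomal hexosaminidase (1.01 ± 0.06), and Cd63, a tetraspanin of lysosomes and endosomes (2.95 ± 0.18). Cd63 read 3.80 to 4.66 in wild-type and 6.59 to 7.42 in knockout livers on OCA. The share called higher among all genes depends on the scaling: limma called 3280 genes higher and 2500 lower under OCA, but 1878 and 9221 after each array was centred on its median and 2805 and 3214 after quantile normalization. Centring moves the median of all genes from -0.02 to -0.21, and the list then has 20 higher and 1 lower of 28. Under both scalings limma called 9 of 9 members higher under OCA.

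Genes that act with TREM2 inside the cell or cut it from the surface followed in part. Under OCA limma called 13 of 16 higher and 0 lower (median 0.52), under vehicle 8 of 16 (median 0.38), and after centring 8 higher and 1 lower under OCA. Lowest in p were Ptpn6, the phosphatase SHP-1 (0.69 ± 0.09), Adam10, a protease that sheds TREM2 (0.51 ± 0.06), Ms4a7, a membrane protein of macrophages (1.36 ± 0.18), and Inpp5d, the phosphatase SHIP1 (0.84 ± 0.11). Tyrobp, named here for its role after its values were seen, was higher by 0.82 ± 0.15 (limma adjusted p = 1.41e-04). Of 5 other Trem genes limma called 1, Treml4, higher by 1.17 ± 0.20 under OCA, with overlapping groups, and after centring 1 higher and 3 lower.

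The lists also held relatives of the other members. Of 18 other subunits of the proton pump limma called 10 higher under OCA, with a median of 0.26, but after centring 3 higher and 2 lower. The 4 lowest in p were Atp6v0e (0.82 ± 0.07), Atp6v1b2 (0.65 ± 0.08), Atp6v1a (0.42 ± 0.06) and Atp6v1e1 (0.28 ± 0.05), all subunits of the pump, and Atp6v1e1 did not pass after centring (0.09). Of the 4 MiT/TFE factors, which drive lysosome genes, Tfec was higher by 0.49 ± 0.12 and Tfeb lower by 0.43 (log2 difference -0.43 ± 0.10), while Mitf (0.13) and Tfe3 (0.24) were not called.

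Among 7 other galectin-related genes Lgals3bp, a secreted galectin-3 ligand (0.57 ± 0.10), and Lgals9 (0.22 ± 0.06) were called higher under OCA and Lgals8 lower (-0.15 ± 0.05), and Lgals9 did not pass after centring (0.03), where the list had 1 higher and 3 lower. Of 6 other genes of the gelsolin family limma called Gsn, gelsolin itself, which was higher by 1.75 ± 0.15, and after centring 1 higher and 1 lower. Of 13 other tetraspanins limma called 8 higher and 2 lower, Tspan33 (-1.31 ± 0.19) and Tspan4 (-0.72 ± 0.14). After centring the split was 6 higher and 4 lower. Besides Cd63 the lowest in p were Cd151 (0.52 ± 0.06), Cd81 (0.44 ± 0.06) and Tspan8 (0.91 ± 0.12), all higher.

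Integrins and matrix enzymes were higher too. Under OCA limma called 9 of 12 integrin-related genes higher and 0 lower, and 7 higher and 2 lower after centring. Itgb2, the β subunit that pairs with CD11c, was higher by 1.05 ± 0.20 with overlapping groups, Itgb5 by 0.76 ± 0.09, Itga9 by 0.47 ± 0.08 and Itgav by 0.28 ± 0.06, the last not passing after centring (0.09). Of 8 other matrix metalloproteinases and their inhibitors limma called 6 higher, also after centring. They were led by the inhibitors Timp2 (1.15 ± 0.09), Timp3 (1.02 ± 0.12) and Timp1 (1.21 ± 0.15) and the gelatinase Mmp2 (1.17 ± 0.13).

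**Figure D3:**
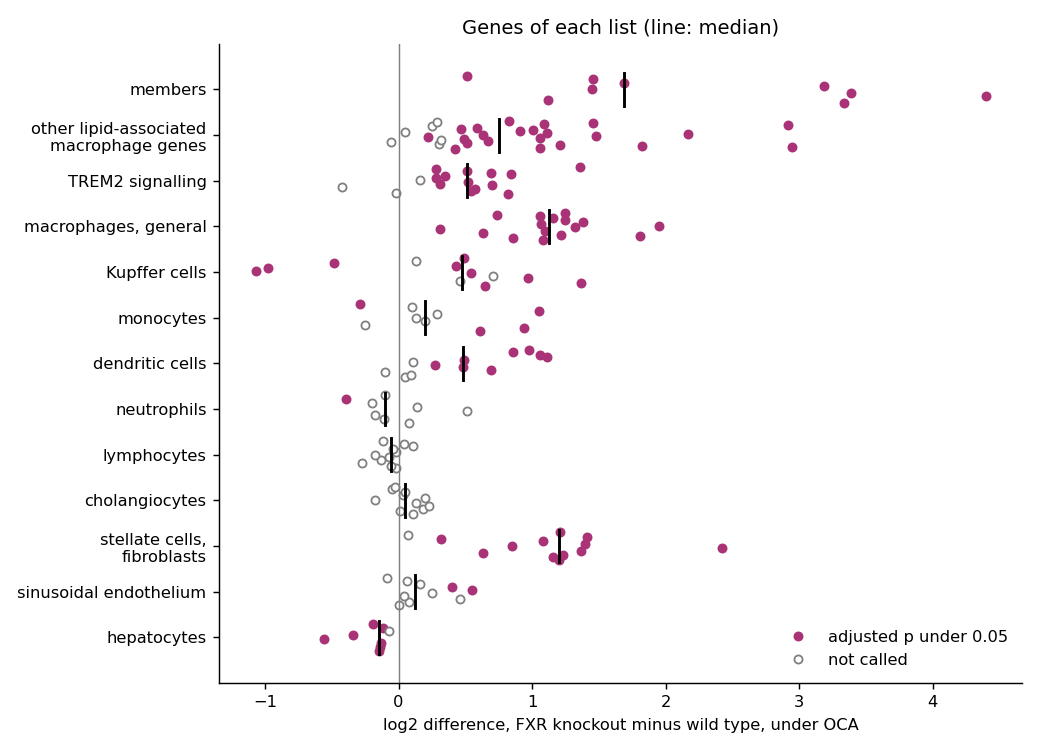
Log2 difference, knockout minus wild type under OCA, for each gene (1 point per gene) of the members and of 12 lists, with filled points for limma adjusted p under 0.05 and a black line at the list median. Members run from 0.51 to 4.40, general macrophage and stellate cell lists have medians of 1.13 and 1.20, and hepatocyte genes a median of -0.15.

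Markers of macrophages in general were, like the members, higher in knockout than in wild-type liver. Under OCA limma called 16 of 16 higher in knockout liver (median 1.13) and under vehicle 15 of 16 (median 0.80). Cybb, a subunit of the phagocyte oxidase, was higher by 1.95 ± 0.18, Cd14, a lipopolysaccharide receptor, by 1.81 ± 0.26, C1qb, a complement subunit, by 1.38 ± 0.19 and Laptm5, a lysosomal protein of blood cells, by 1.32 ± 0.17. The mean of the 16 in a liver ran from 6.98 to 7.93 in wild-type vehicle, 6.79 to 7.96 in wild-type OCA, 8.12 to 8.27 in knockout vehicle and 8.09 to 8.82 in knockout OCA livers. The mean of the 9 members ran from 5.12 to 5.47, 5.24 to 5.44, 7.56 to 7.86 and 7.46 to 7.69 in the same order.

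**Figure D4:**
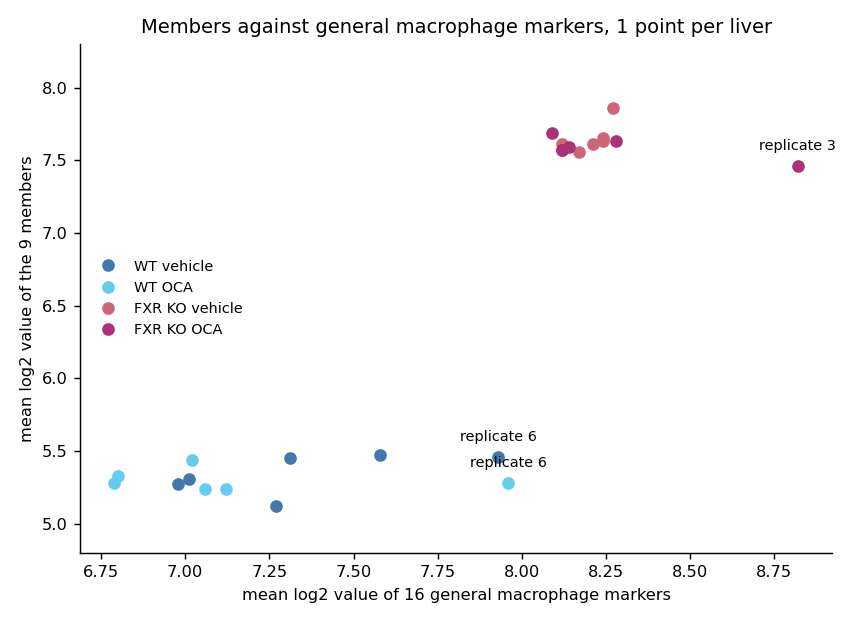
Mean log2 value of the 9 members against the mean of 16 general macrophage markers, 1 point per liver, with the 3 livers high in macrophage markers labelled by replicate. Both wild-type livers labelled replicate 6 have marker means of 7.93 and 7.96, near the knockout livers. Their member means of 5.46 and 5.28 lie inside the wild-type ranges of 5.12 to 5.47 under vehicle and 5.24 to 5.44 under OCA.

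Of the 3 livers that stood above their own groups in marker mean, none had the highest member mean of its group. Wild-type vehicle replicate 6 had a marker mean of 7.93 and a member mean of 5.46, just under the group's highest, 5.47 in replicate 5. Gpnmb, Lgals3, Capg and Cd9 were highest of the group there, while Trem2, Atp6v0d2, Itgax and Lgals1 lay below their group means. Wild-type OCA replicate 6 had a marker mean of 7.96 and a member mean of 5.28. Lgals3 and Capg were highest of that group, Gpnmb lay 0.03 above its mean and the other members lay below theirs. Knockout OCA replicate 3 had the highest marker mean, 8.82, and the lowest member mean of the knockout livers, 7.46. Gpnmb and Capg were highest of the group in it, and the other members lay below their group means. Without these 3 livers, an alternative chosen after the data were seen, limma called 9 of 9 members and 16 of 16 markers higher under OCA.

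To set the members beside the markers within a liver, the marker mean was subtracted from each member. Under OCA 4 members then still separated the genotypes: Mmp12 by 3.26 on average, Atp6v0d2 by 2.26, Gpnmb by 2.21 and Lgals1 by 2.05. Of all genes 0.250% separated in this way, against 10.9% before the subtraction. The marker mean was itself higher in knockout liver, so subtracting it lowers every gene there. The members were chosen on their genotype difference, so this share is no test of them. For the other 5 the groups overlapped, with mean differences of 0.55 (Lgals3), 0.33 (Capg), 0.32 (Itgax), -0.02 (Trem2) and -0.63 (Cd9). For Lgals3 the overlap came from knockout OCA replicate 3 alone, at -0.96 against a highest wild-type value of -0.66. Under vehicle, where 0.691% of genes separated, the corresponding means were 3.72 for Mmp12, 2.56 for Gpnmb, 2.38 for Lgals1, 2.28 for Atp6v0d2, 0.75 for Itgax and 0.62 for Lgals3, all with groups apart, against 0.55 for Trem2, 0.38 for Capg and -0.25 for Cd9 with overlapping groups. The part of macrophage number in the members' levels was not tested.

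Other cell types were uneven. Of 12 Kupffer cell markers limma called 6 higher and 3 lower under OCA, and 3 of each after centring. The resident-cell lectin Clec4f was higher by 0.65 ± 0.09 and the complement receptor Vsig4 by 1.37 ± 0.19, whereas the haemoglobin scavenger receptor Cd163 (-1.07 ± 0.19), C6 (-0.98 ± 0.18) and Fcna (-0.48 ± 0.10) were lower. With the code number of the arrays as a block limma called 0 of 12 lower: Cd163 was at -0.20 (limma adjusted p = 0.813), Fcna at -0.14 (0.751) and C6 at -1.07 (0.13). Over the 12 the mean in a liver was 7.65 to 8.28 and 7.55 to 8.48 in wild-type vehicle and OCA livers and 7.91 to 8.13 and 7.87 to 8.62 in knockout ones, so these overlapped.

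Of 9 monocyte markers limma called 3 higher under OCA, Cx3cr1 (0.94 ± 0.13), Cd52 (1.05 ± 0.16) and Ccr2 (0.61 ± 0.17), and 1 lower, Fn1 (-0.29 ± 0.06). After centring it called 3 higher and 2 lower. With the number block Cx3cr1 no longer passed (0.71, limma adjusted p = 0.144), while Cd52 and Ccr2 did. Of 12 dendritic cell markers limma called 8 higher under OCA, led by the antigen presentation genes H2-Aa (1.11 ± 0.21), Cd74 (0.98 ± 0.19) and H2-Ab1 (1.06 ± 0.22) and by Clec9a (0.69 ± 0.14). After centring it called 7 higher and 1 lower. Under vehicle it called 7 higher and 0 lower, but 1 higher and 1 lower after centring. Of 8 neutrophil markers limma called 0 higher and 1 lower under OCA, Camp (-0.39 ± 0.11). Of 11 lymphocyte markers limma called 0 under OCA, and after centring 0 higher and 5 lower. The neutrophil mean reached 4.37 in wild-type vehicle replicate 6 and lay between 3.06 and 3.68 in the other 23 livers.

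Stellate cell and fibroblast markers were higher as well, with 12 of 13 called under OCA (median 1.20). Lum (1.40 ± 0.10) and Dcn (0.85 ± 0.09), matrix proteoglycans, Lrat (1.37 ± 0.13), which stores retinol in stellate cells, and Col1a2 (1.16 ± 0.12), a collagen chain, had the lowest p. Their mean ran from 6.06 to 6.49 in wild-type and from 7.09 to 7.56 in knockout livers. For cholangiocytes limma called 0 of 11 under OCA and 4 of 11 higher under vehicle, and for endothelium 2 of 10 higher under OCA (2 higher and 2 lower after centring) and 3 of 10 lower under vehicle. Hepatocyte genes were slightly lower, 7 of 8 called under OCA (median -0.15) and 2 of 8 under vehicle (median -0.10), by 0.56 under OCA for the regulator Hnf4a (-0.56 ± 0.08) and less for Cps1 (-0.34 ± 0.05), Fgb (-0.19 ± 0.06) and Apoa1 (-0.14 ± 0.04). Their part in the members' differences was not tested.

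Blocking on the array code number cost many list genes their call, and the list medians are given beside the counts. All wild-type OCA arrays carry 5 and all knockout OCA arrays 9, so the block links these groups only through vehicle arrays. Those sharing a number with them are wild-type vehicle replicates 5 and 6 and knockout vehicle replicates 1 and 2. Wild-type vehicle replicate 6 is the liver with 532 genes over 2-fold from the rest of its group. This block left limma with 9 of 9 members called higher under OCA, 16 of 28 other lipid-associated macrophage genes, 13 of 16 macrophage markers and 8 of 13 stellate cell markers. It left 6 higher and 1 lower of 16 TREM2 pathway genes, 3 of 18 proton pump subunits, 3 of 12 integrin-related genes, 5 of 12 dendritic and 4 of 12 Kupffer cell markers, and 0 of 8 hepatocyte genes. Medians with and without the block were 0.89 and 0.75 for the other lipid-associated macrophage genes, 1.83 and 1.13 for macrophage markers, 1.18 and 1.20 for stellate cell markers, 0.60 and 0.52 for TREM2 pathway genes, 0.67 and 0.59 for integrins, 0.19 and 0.26 for pump subunits and -0.15 in both for hepatocyte genes. Of all genes 12.4% were called with this block, and the Trem2 relative Treml4, at 1.28 against 1.17 without the block, no longer passed (limma adjusted p = 0.0771).

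Within groups the members' levels were weakly correlated. After each group's mean was subtracted, Pearson's r over the 24 livers ran from -0.45 to 0.57 across the 36 pairs of members, with a median of 0.07, and 2 pairs exceeded 0.5: Mmp12 with Itgax (0.57) and Gpnmb with Lgals3 (0.52, or 0.36 without wild-type vehicle replicate 6). These values describe 24 arrays that share scaling and, in part, the same array code, and carry no test.

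The genes most like each member were picked as the 3 highest r among all named genes. The highest of so many correlations over 24 livers can be large without any relation, and no test was made. Lgals3 varied with Lgmn, a lysosomal protease (r = 0.81), and with the macrophage genes C1qb (0.79) and Cd68 (0.79). Capg varied with the leukocyte genes Ptprc (0.82), Clec4a1 (0.81) and Itgal (0.81). Atp6v0d2 varied with Akr1d1, an enzyme of bile acid synthesis (0.84), Gamt, an enzyme of creatine synthesis (0.83), and Zfp541 (0.82). With the other members the r of Atp6v0d2 ran from -0.45 (Capg) to 0.09 (Itgax). Which cells made its RNA was not tested. Cd9 was most like App (0.81), Id2 (0.80) and Tspyl2 (0.75), and Gpnmb most like Yipf5 (0.80), Tmem87a (0.77) and St3gal4 (0.75). For the other 4 members the highest values were 0.74 for Trem2 (Zfhx4), 0.75 for Mmp12 (Olfr308), 0.75 for Itgax (Chd6) and 0.76 for Lgals1 (Olfr1286).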

How the data were processed

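Total RNA of 24 mouse livers, 1 array per mouse, was hybridised to whole-transcript arrays. The deposited values are log2 expression that the authors obtained by RMA, per the submitters' processing notes; neither the RMA version nor the base of the logarithm is stated there, and values from 0.87 to 13.6 fit base 2. The values were used as they are, with array medians of 4.57 to 4.65. Of 35556 probe sets 21218 had 1 gene symbol and were used, 1881 had several and 12457 had no entry in the probe table. For 21185 of them the current symbol came by gene number from a RefSeq table of GRCm38.p6. The probe set with the highest mean was kept per gene, which left 18820 genes. Per the labels each group had 6 mice, and this number limits the precision.

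A 4-group means model was fitted over all genes with limma 3.58.1 in R 4.3.3 (lmFit and eBayes, 20 residual and 4.46 prior degrees of freedom), with Benjamini-Hochberg adjustment over the 18820 genes and a threshold of 0.05. The fit was tested on simulated data. Figures used Python 3.11.15 and matplotlib 3.10.9. Gene lists of pathways and cell types were written by hand. The members and lists were chosen with earlier results of these data known. Named genes are the members, the FXR checks Nr1h4, Nr0b2, Slc51b and Cyp8b1, up to 4 genes per list with the smallest p between genotypes under OCA, and for each member the 3 genes with the highest r. Genes outside this rule that make up a count of 5 or fewer were named after their values were seen.

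Alternatives were other scalings, a filter at the median gene, other variance models, array weights, only the compared groups, the array code number or letter as a block, 1 number alone, leaving out arrays whose names end in _2 or each array in turn, the replicate number as a block, and other probe set rules. Chosen after the data were seen were leaving out wild-type vehicle replicate 6 under the number block and leaving out the 3 livers high in macrophage markers. Replicate numbers were checked for pairing: over 36 pairs of livers with the same number the correlation of deviations ran from -0.08 to 0.17, and 2 exceeded 0.1. Livers with different numbers were not compared, so this check cannot exclude a pairing. What the array code means is not stated in the labels. Promoters came from RefSeq, GRCm38.p6.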

Additional observations from a re-analysis of the deposited data

Results flagged for a closer look

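In 6 of 36 groups of 6 livers 1 liver stood apart from the nearest other by more than Dixon's 95% critical value for 6 samples allows, as chance does in about 1 group in 20. Mmp12 was highest in wild-type OCA replicate 1, at 4.51 against 4.09 for the next liver, and Itgax was highest in the same liver, at 4.69 against 4.27. Itgax also stood out in knockout vehicle replicate 3, at 6.17 against 5.87. Lgals1 was highest in knockout OCA replicate 1, at 10.46 against 10.27. Capg was highest in wild-type OCA replicate 6, at 5.11 against 4.59, the liver with a macrophage marker mean of 7.96. Cd9 was lowest in knockout vehicle replicate 1, at 7.60 against 7.77. None of these livers crossed to the other genotype's range under the same treatment except in Cd9, where the wild-type vehicle group reached 7.66.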

How the results depend on the processing

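Over the alternatives run, the members were higher in knockout liver in each one that measured them, and under OCA limma called 9 of 9, or 6 of the 6 that pass the filter at the median gene. The exception was 1 member, Itgax, when wild-type vehicle replicate 6 was left out under the number block (1.25, adjusted p = 0.0521). Under OCA no within-number value exists, since all wild-type arrays carry 5 and all knockout arrays 9. Under vehicle the Gpnmb difference moved to 3.67 with the number block, also without wild-type vehicle replicate 6, and within number 7, and that of Lgals1 to 3.08 with median centring. Under OCA the number block gave 1.14 for Cd9 (0.51 without it), 2.35 for Lgals3 (1.69) and 4.08 for Gpnmb (3.34). For Atp6v0d2 it gave a smaller difference, 3.03 (3.39). Between genotypes under OCA the highest limma adjusted p over the alternatives was 0.0254 for Atp6v0d2, 0.0271 for Trem2 and 0.0428 for Cd9. The number block raised the members called for OCA in wild-type liver from 0 to 1 (Gpnmb, -0.62). It moved the genes called there from 13 to 667 (77 without replicate 6) and those called between genotypes under OCA from 5780 to 2334 (1834 without replicate 6). Median centring called 10130 genes under vehicle in place of 5174 (1776 higher and 8354 lower against 2903 and 2271) and 11099 under OCA. Quantile normalization gave 2526 higher and 2863 lower under vehicle. The replicate block changed no count of members called: 9 between genotypes under OCA and 0 for OCA in wild-type liver, for OCA in knockout liver and for the difference.

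Of 837 alternative values of OCA effects 35 changed sign, from -0.16 to 0.41, none of them called. In wild-type liver these were Mmp12 -0.07 and Cd9 -0.16 (number block and number 5 alone) and Itgax -0.01 (array weights). In knockout liver they were Mmp12 0.10 (number block, with and without wild-type vehicle replicate 6, and number 9 alone), 0.09 (without arrays ending in _2) and 0.03 (without the 3 livers), Capg -0.07 (without the 3 livers), and, without arrays ending in _2, Atp6v0d2 -0.04, Itgax 0.18 and Capg -0.13. For the difference they were Gpnmb 0.41, Mmp12 0.17 and Cd9 0.31 (number block), Gpnmb 0.32, Mmp12 0.04, Lgals1 0.07 and Cd9 0.14 (the same without replicate 6), Lgals1 0.01 (letter block) and Itgax 0.15 (without arrays ending in _2). The cause was not tested. With 1 array left out, the ranges that crossed 0 were, in wild-type liver, Atp6v0d2 -0.48 to 0.13, Mmp12 -0.03 to 0.15, Itgax -0.05 to 0.08 and Lgals1 -0.10 to 0.00. In knockout liver they were Capg -0.07 to 0.08, Lgals3 -0.01 to 0.14, Mmp12 -0.18 to 0.03 and Atp6v0d2 -0.04 to 0.16, and for the difference Atp6v0d2 -0.07 to 0.54. The arrays that turned the sign were wild-type vehicle replicates 1 (Atp6v0d2), 2 (Lgals1), 4 (Mmp12) and 5 (Itgax), wild-type OCA replicate 1 (Mmp12, Itgax), knockout vehicle replicates 4 (Capg) and 6 (Lgals3), and knockout OCA replicates 3 (Mmp12, Capg) and 4 (Atp6v0d2).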
